A study of Mus musculus with 20 samples.

Results

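The 44 genes described here serve the interferon response and the presentation of antigens on MHC molecules. They were taken as a fixed list of symbols and found by gene ID among 45706 genes counted in every sample. By role they comprised 8 regulators and sensors, 24 interferon-stimulated effectors, 7 genes of MHC class I and 5 of MHC class II. RNA-Seq read counts were available for 20 mouse samples. Primary mammary tumors came from 18-week-old PyMT mice, in which the MMTV promoter drives the polyoma middle T oncogene, on a C57BL/6N background. There were 4 control tumors, competent for the lysosomal protease cathepsin D (CTSD), and 4 MMTV-cre;Ctsd-/- tumors, where the Cre recombinase is driven by the same promoter and so removes Ctsd in the mammary epithelium, while the stroma keeps it. The other 12 samples were tumor cell cultures kept in medium with 1% fetal calf serum (FCS), either for 10 days (1% FCS) or for 12 weeks (1% FCS LT), with 3 Ctsd+/+ and 3 Ctsd-/- samples at each time. All Ctsd+/+ cells were grown from 1 PyMT mouse and all Ctsd-/- cells from 1 MMTV-cre;Ctsd-/- PyMT mouse, as spontaneously immortalized lines, so that genotype and line of origin cannot be told apart in the cultures. Nothing in the labels gives separate derivations of the 3 samples of a cell group, and p-values in cells measure the spread between these samples.

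Interferons bind receptors at the cell surface, and JAK kinases then activate STAT proteins. STAT2 joins IRF9 in a complex that binds the interferon-stimulated response element (ISRE) in the promoters of interferon-stimulated genes, among them antiviral effectors such as the OAS enzymes, the IFIT proteins and ISG15. RIG-I (encoded by Ddx58), MDA5 (Ifih1) and LGP2 (Dhx58) sense RNA in the cytosol, and RIG-I and MDA5 start interferon production. MHC class I molecules are heavy chains (H2-K1, H2-D1) paired with beta-2-microglobulin (B2m). The TAP transporter (Tap1, Tap2) and tapasin (Tapbp) load them with peptides, and NLRC5 is the transactivator of their genes. CIITA is the corresponding transactivator of MHC class II, which is found mainly on professional antigen-presenting cells and is guided through the endosomal pathway by the invariant chain Cd74. Cathepsin D itself is an endosomal and lysosomal protease.

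Promoter sequences are shown for 7 genes whose response to the culture time differed between the genotypes, since the ISRE is the sequence through which this gene group is known. They were taken from RefSeq (build GRCm38.p6), given 5′ to 3′ on the strand of the gene, with capitals marking the matches to GAAANNGAAA on either strand (overlapping matches run together).
B2m: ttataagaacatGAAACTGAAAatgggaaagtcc
Isg15: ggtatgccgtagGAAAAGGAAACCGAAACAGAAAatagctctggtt
Oas1a: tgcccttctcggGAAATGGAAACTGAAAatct
Oas3: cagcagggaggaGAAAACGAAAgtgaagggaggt
Rsad2: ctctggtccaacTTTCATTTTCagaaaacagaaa
Gbp2: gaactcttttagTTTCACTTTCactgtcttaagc
Gbp3: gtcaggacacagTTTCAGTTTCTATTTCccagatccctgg

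These windows lie at chr2:122147536-122147569 (plus strand, B2m), chr4:156200863-156200908 (minus strand, Isg15), chr5:120907526-120907557 (minus strand, Oas1a), chr5:120777713-120777746 (minus strand, Oas3), chr12:26456551-26456584 (minus strand, Rsad2), chr3:142620592-142620625 (plus strand, Gbp2) and chr3:142559987-142560026 (plus strand, Gbp3). Each is upstream of the gene's first exon in the RefSeq entry. Of the 44 genes, 30 had a promoter entry, and 11 of these 30 (36.7%) held the ISRE letters within 250 bases upstream of the start, against 3.46% of 27025 genes in the same table. By role the match was found in 9 of 17 effectors, 1 of 6 regulators and sensors, 1 of 5 class I genes and 0 of 2 class II genes. The letters TTCNNNGAA, a form of the interferon-gamma-activated site, were found in 4 of 30 members (13.3%) and in 8.13% of all genes. The CCAAT box, searched on both strands, was present in all 5 class I and both class II promoters and in 37.5% of all genes. Oasl1, Ddx58 and Ifit2, like Oas1a, were called in the test of genotype against culture time given further on. They had no ISRE match in this window, and their sequences are not shown. A match is a match of letters only.

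The label check on Ctsd went with the labels in every sample. In the control tumors Ctsd stood at 1860, 2617, 1781 and 2532 CPM (counts relative to library size, scaled by TMM) and in the MMTV-cre;Ctsd-/- tumors at 797, 360, 1295 and 1233 CPM. In cells it lay between 1267 and 4199 CPM in Ctsd+/+ samples and between 114 and 192 CPM in Ctsd-/- samples. Gene counts per sample ranged from 49725437 to 64291587 in tumors and from 33622831 to 40239762 in cells. The Ctsd+/+ cells at 1% FCS stood apart from the other 9 cell samples. Their summed fibroblast markers (Col1a1, Dcn, Pdgfra) were at 607 to 2349 CPM against at most 14.6 CPM elsewhere, and their summed epithelial markers (Epcam, Krt8, Krt18, Cdh1) at 840 to 1634 CPM against at least 3972 CPM elsewhere. Most of the fibroblast sum was Col1a1, at 531, 2320 and 1460 CPM. Pdgfra was at 74.3, 28.1 and 10.9 CPM (up to 10.6 CPM elsewhere) and Dcn at 1.86, 0.366 and 0 CPM. That this group stood apart touches each comparison that uses it, and its part in the results was not tested. Cells were also sequenced in 3 runs. The first replicate of both genotypes at 1% FCS and the third of both at 1% FCS LT each had a run of their own, and the remaining 8 samples, 2 per group, shared 1 run. In tumors the run changed with the genotype, and the effects of these cannot be told apart.

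All 44 genes were expressed in tumors, where none had a mean under 1 CPM in either genotype. Per kilobase of exon, the highest mean levels in control tumors belonged to Cd74 (1348.5 CPM per kb), B2m (1257.5) and H2-D1 (736.9), and in MMTV-cre;Ctsd-/- tumors to B2m (2130.0), H2-D1 (1327.4) and Cd74 (1104.2). The cultures held far fewer of these transcripts. Among the 32 regulators, sensors and effectors, between 8 and 10 per cell group had a mean under 1 CPM, and between 10 and 13 were above 10 CPM. The median of their group means was 57.2 and 65.8 CPM in control and MMTV-cre;Ctsd-/- tumors, and between 2.98 and 4.21 CPM in the 4 cell groups. Per kilobase, B2m led the order in each cell group (127.0 to 432.1 CPM per kb), with H2-D1, H2-K1 and Tapbp in the next places. In Ctsd+/+ cells at 1% FCS LT, B2m and H2-D1 were at nearly the same level (127.0 and 126.6 CPM per kb). Tumors and cells were scaled separately, were made with libraries of different strandedness, and were not tested against each other.

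**Figure D1:**
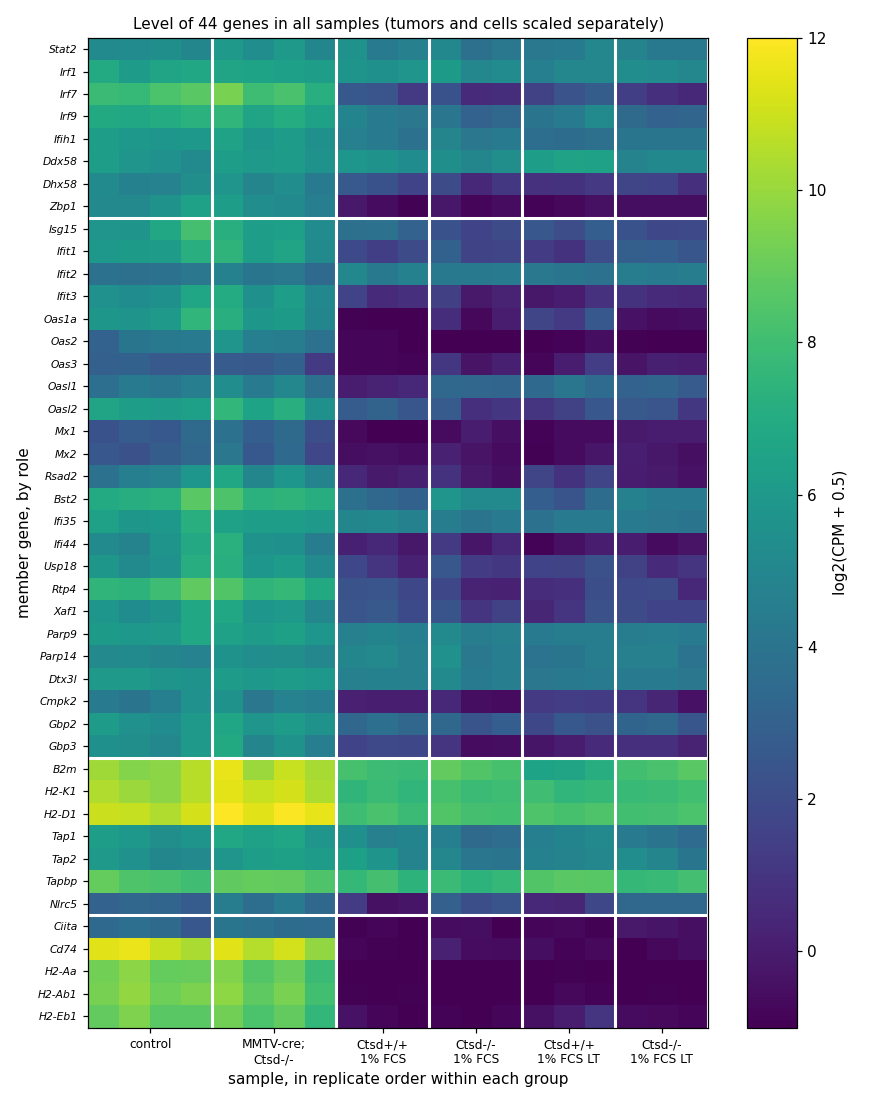
Level of the 44 genes (rows, by role, white lines between the 4 roles) in each of the 20 samples (columns, grouped), as log2(CPM + 0.5), where light color is high. The class II genes in the bottom rows are high in the 8 tumors and near 0 in the 12 cell samples, and most effectors are lower in cells than in tumors.

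MHC class II transcripts were plentiful in tumors and at or near 0 in cells. In tumors Cd74 lay between 943 and 3190 CPM, H2-Aa between 236 and 868, H2-Ab1 between 267 and 959, and H2-Eb1 between 192 and 706 CPM. In cells H2-Aa had 0 counts in 11 of 12 samples, H2-Ab1 did not exceed 0.107 CPM, Cd74 did not exceed 0.633 CPM and H2-Eb1 was at most 0.533 CPM in 11 of 12 samples. In the smallest library of a cell group, 3 counts correspond to 0.0772 to 0.0916 CPM, which is the limit that a count of 0 allows for counting error. The T cell markers Cd3e, Cd3d, Cd8a and Cd4 summed to 7.91 to 14.4 CPM in tumors and to at most 0.0799 CPM in cells. Macrophage markers (Adgre1, Csf1r, Cd68, Mrc1) summed to 101 to 316 CPM in tumors and, not near 0, to 6.51 to 63.6 CPM in cells. The sum in cells was nearly all Csf1r (53.0, 54.5 and 58.2 CPM in Ctsd+/+ cells at 1% FCS LT) and Cd68. Adgre1 and Mrc1 did not exceed 0.290 and 0.309 CPM there. Dendritic cell markers (Flt3, Itgax, Zbtb46, Xcr1) summed to 16.3 to 30.7 CPM in tumors and to 1.07 to 10.7 CPM in cells. In cells this was nearly all Zbtb46, highest in Ctsd+/+ cells at 1% FCS (9.30, 9.56 and 10.7 CPM). Flt3 and Itgax did not exceed 0.148 and 0.127 CPM in cells, and Xcr1 had no counts. In bulk samples, fewer cells of a type and less RNA per cell cannot be told apart.

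The tumor comparison asked how loss of CTSD in the mammary epithelium changed the tumor transcriptome. MHC class I genes were higher in MMTV-cre;Ctsd-/- than in control tumors, while class II genes and most interferon-stimulated genes were not called. With edgeR's quasi-likelihood test at an unadjusted p under 0.1, the threshold of the study for tumors, 8 of 44 genes were called higher and 0 lower, beside 8.44% of all 18617 genes called higher and 8.27% lower. Of these 8, 6 were among the 7 class I genes, and the median log2 fold change of class I was 0.76 against 0.001 over all genes. At an adjusted p under 0.05, 0 of the 44 genes were called and 1 of all genes (0.00537%). The lowest adjusted p (edgeR) among the 44 was 0.423. At an unadjusted p under 0.05, 5 members were higher and 0 lower. For single genes an exact two-sided permutation test over the 70 splits of the tumors is given too. It was chosen after seeing the data and is not corrected for the number of genes. Its p cannot go below 0.0286, the value that any gene without overlap between the groups takes. DESeq2 at p under 0.1 called 9 members higher and 0 lower, and limma-voom called 8 and 0.

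Nlrc5, the class I transactivator, had the largest change of the class I genes. It stood at 7.96, 9.23, 9.00 and 6.37 CPM in control tumors and at 22.5, 12.5, 20.6 and 10.1 CPM in MMTV-cre;Ctsd-/- tumors, so that every value of the second group lay above every value of the first. Its log2 fold change was 1.01 ± 0.29 (SE, exact permutation p = 0.0286, edgeR adjusted p = 0.423). H2-D1, a class I heavy chain, was the only other member whose groups did not overlap in either direction (over all 18617 genes, 2.26% had every knockout value above every control value and 1.89% below). H2-D1 was at 2003, 1888, 1381 and 2329 CPM in controls and at 4105, 2710, 3934 and 2944 CPM in MMTV-cre;Ctsd-/- tumors (log2 fold change 0.85 ± 0.26, exact permutation p = 0.0286, edgeR adjusted p = 0.464).

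The heavy chain H2-K1 was at 1418, 1057, 844 and 1570 CPM in controls and at 2880, 1924, 2325 and 1346 CPM in MMTV-cre;Ctsd-/- tumors. Here the fourth knockout tumor fell within the control range (log2 fold change 0.79 ± 0.30, exact permutation p = 0.0857, edgeR adjusted p = 0.544). H2-K1 and H2-D1 are near-identical in sequence to each other and to other class I heavy chains, and reads mapping to several places were not counted, so the split of reads among them is uncertain. For the light chain B2m, on chromosome 2 and without a near-identical copy among the members, values were 1126, 775, 862 and 1562 CPM in controls and 3045, 1048, 1951 and 1283 CPM in MMTV-cre;Ctsd-/- tumors, with overlapping groups (log2 fold change 0.76 ± 0.37, exact permutation p = 0.171, edgeR adjusted p = 0.575). Its mean was 1081 ± 354 CPM against 1832 ± 895 CPM (SD, n = 4).

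The TAP subunits were called with overlapping groups. Tap1 was at 75.5, 60.4, 43.0 and 53.1 CPM in controls and at 112, 87.5, 102 and 55.4 CPM in knockout tumors (log2 fold change 0.62 ± 0.26, exact permutation p = 0.0857, edgeR adjusted p = 0.555). Tap2 was at 65.7, 46.9, 30.8 and 33.7 CPM and at 54.1, 77.7, 84.4 and 72.6 CPM (log2 fold change 0.71 ± 0.27, exact permutation p = 0.0571, edgeR adjusted p = 0.544). The first knockout tumor was the highest of its group for Tap1 and the lowest for Tap2. Tapbp, the remaining class I gene, had a log2 fold change of 0.30 ± 0.24 and was not called. Leaving out 1 tumor at a time gave 4 to 7 class I genes called higher. Without the first MMTV-cre;Ctsd-/- tumor B2m was at a log2 fold change of 0.40 and was not called, and it also lost its call without control tumor 2, control tumor 3 or the third knockout tumor. Tap1 lost its call without control tumor 3.

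None of the class II genes was called, and their directions differed. Ciita was at 10.5, 12.9, 10.9 and 5.33 CPM in controls and at 16.1, 14.5, 11.7 and 11.0 CPM in knockout tumors (log2 fold change 0.43 ± 0.29, exact permutation p = 0.143, edgeR adjusted p = 0.646). The 4 genes it controls had log2 fold changes between -0.40 and -0.29, none called, and the class median was -0.32. Each class II gene overlapped between the genotypes.

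**Figure D2:**
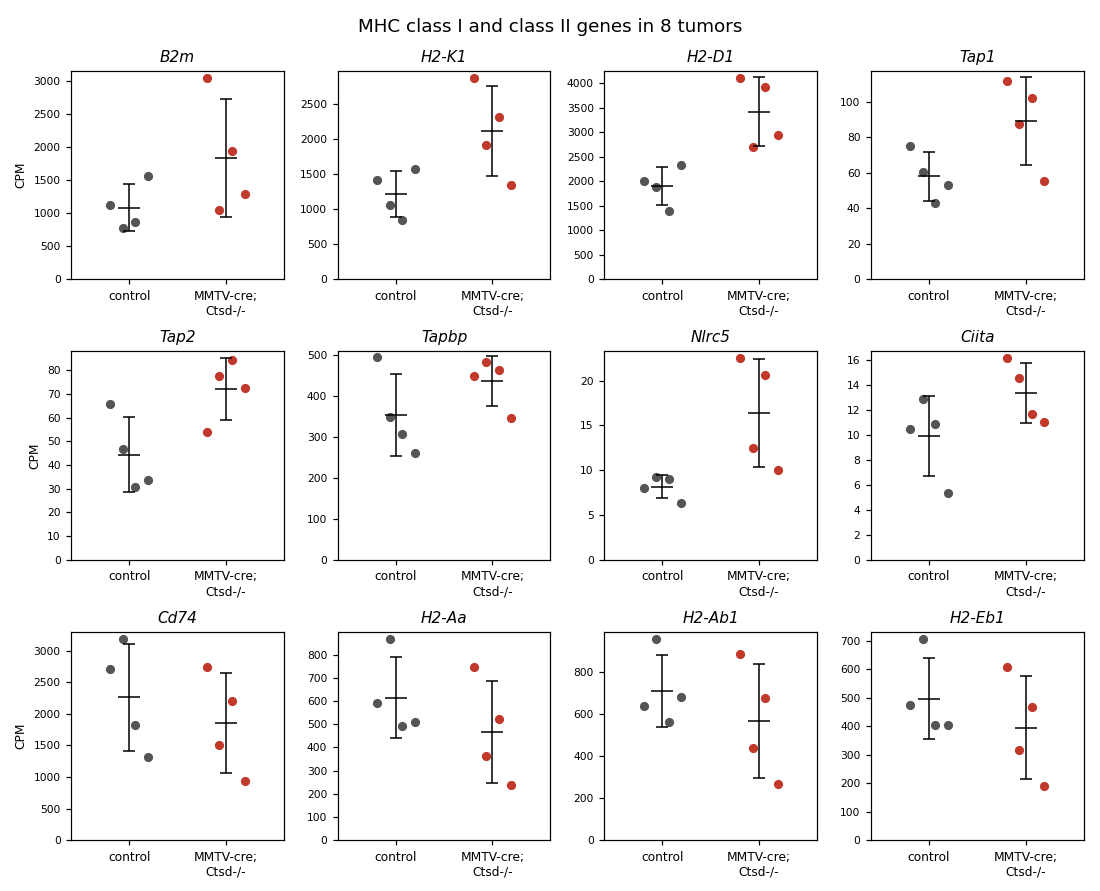
CPM (y axis, from 0) of the 7 class I and 5 class II genes in the 4 control and 4 MMTV-cre;Ctsd-/- tumors, where points are single tumors and bars the mean with 1 SD. Nlrc5 and H2-D1 show no overlap between the genotypes, and Cd74, H2-Aa, H2-Ab1 and H2-Eb1 overlap throughout.

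Markers of other cell types also differed between the tumors. The summed adipocyte markers (Adipoq, Plin1, Cidec, Cfd) ranged from 366 to 3935 CPM in controls and from 2666 to 15448 CPM in knockout tumors, with 4 of 4 called higher. The 2 endothelial markers (Pecam1, Cdh5) summed to 22.0 to 61.3 and 35.6 to 173 CPM, both called higher. Cd79a of 3 B cell and Pdgfra of 3 fibroblast markers were called higher and Ncr1 of 2 NK cell markers lower. None of 4 leukocyte and none of 4 T cell markers were called, with summed leukocyte markers at 197 to 390 CPM in controls and 209 to 332 CPM in knockout tumors. With the leukocyte markers as a covariate, a fit chosen after seeing the data, 9 members were called higher, beside 7.05% of all genes. With the adipocyte markers as a covariate 5 were, beside 5.26% of all genes, and H2-D1, H2-K1, B2m and Tap2 were no longer called (log2 fold changes 0.56, 0.74, 0.54 and 0.74), while Nlrc5 (1.26), Tap1 (0.80), Tapbp (0.66), Ciita (0.87) and Parp14 (0.55) were. With the endothelial markers as a covariate 19 members were called higher at an unadjusted p under 0.1, beside 3.19% of all genes. The lowest adjusted p (edgeR) among the 44 was 0.637, 0.797 and 1 with the leukocyte, adipocyte and endothelial markers. What part these cell types had in the class I values was not tested further.

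Among the 32 regulators, sensors and effectors, 2 were called in tumors, both effectors and both higher, and the median log2 fold change was 0.19. Oas2, an enzyme that makes the 2-5A activator of RNase L, was at 8.08, 16.3, 18.6 and 20.8 CPM in controls and at 53.6, 23.6, 22.1 and 14.5 CPM in knockout tumors (log2 fold change 0.84 ± 0.42, exact permutation p = 0.2, edgeR adjusted p = 0.578). Without the first knockout tumor its log2 fold change was 0.33 and it was not called. Parp14, an ADP-ribosyltransferase, was at 34.3, 36.3, 29.9 and 26.5 CPM and at 49.4, 41.1, 41.8 and 32.4 CPM (log2 fold change 0.37 ± 0.19, exact permutation p = 0.0857, edgeR adjusted p = 0.586). It lost its call without any 1 of 5 tumors.

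The tumors of 1 genotype differed widely among themselves. Over the 32 genes, the highest tumor was a median of 2.17 times the lowest among controls and 3.15 times among knockout tumors. Control tumor 4 was the highest of its group for 23 of 32 genes, and the first knockout tumor was the highest of its group for 29 of 32. The fourth knockout tumor was the lowest for 30 of 32. Isg15, a ubiquitin-like modifier, shows this, at 53.6, 53.1, 110 and 290 CPM in controls and 149, 77.3, 80.1 and 38.2 CPM in knockout tumors. Without the fourth knockout tumor, 13 members were called higher in place of 8, and without the first knockout tumor or control tumor 3 there were 5. Without the first knockout tumor 1 member was also called lower.

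Other genes of the pathway, not among the 44, were examined in tumors as well. The interferon genes Ifnb1 and Ifng had at most 9 and 20 counts in any tumor, and 0 in every cell sample. Of 36 listed genes, 34 were tested in tumors. At an unadjusted p under 0.1 (edgeR) 0 were called, beside 16.7% of all genes called in either direction. Among those not called were all 7 genes for class I peptide loading and the immunoproteasome, with a median log2 fold change of -0.134. They include the immunoproteasome subunit genes Psmb8, Psmb9 and Psmb10 and the peptide trimming enzyme Erap1.

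In cells, 37 of the 44 genes passed the filter on low counts. The 5 class II genes, Oas2 and the sensor Zbp1 did not pass and were not tested. Changes were called at an adjusted p under 0.05, and all 12 samples entered 1 fit. The plot of log2 fold changes gives every gene in every comparison.

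**Figure D3:**
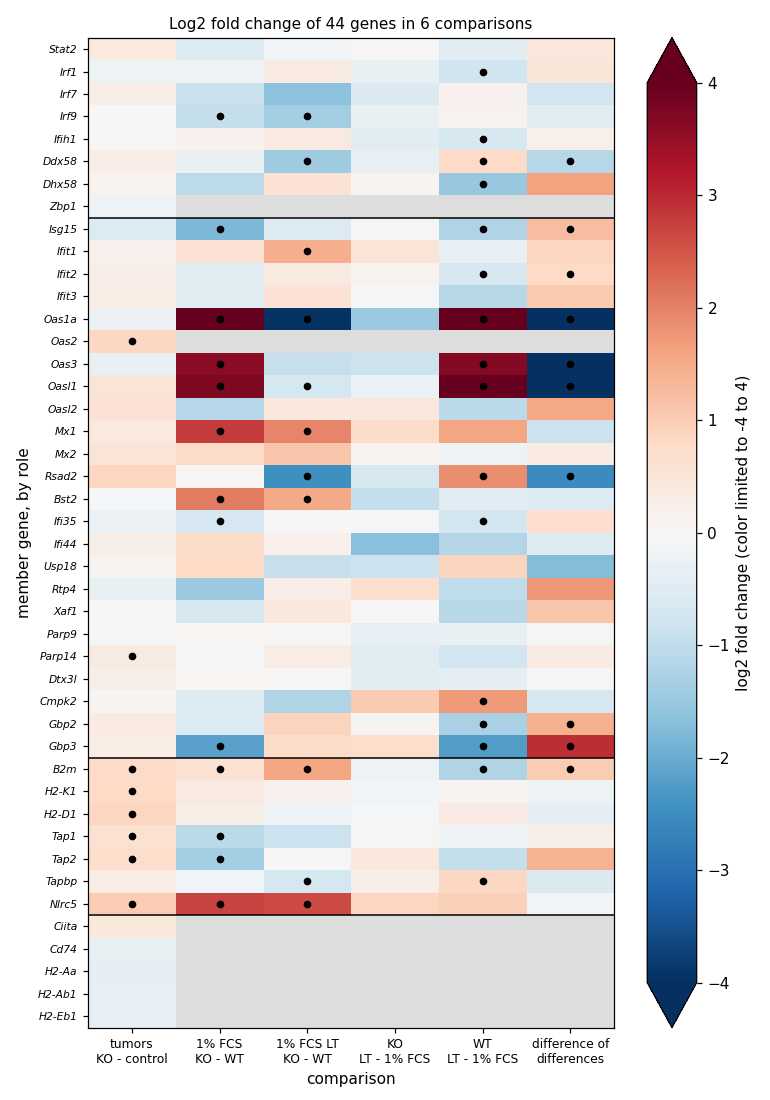
Log2 fold change of the 44 genes (rows, by role) in the 6 comparisons (columns), red for higher and blue for lower in the first-named group, color limited to -4 to 4, grey where a gene was not tested, and dots where it was called. In the third block of rows the dots in the tumor column fall on 6 of 7 class I genes, and the column for Ctsd-/- cells over time holds no dot.

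After 10 days in 1% FCS, Ctsd-/- and Ctsd+/+ cells differed in 13 of the 37 tested genes, in both directions. Calls were 7 higher and 6 lower in Ctsd-/- cells, beside 23.5% of all 15178 genes called higher and 25.1% lower, so the share of members called (35.1%) was below that of all genes (48.5%). The Ctsd+/+ samples here are the group with high Col1a1 and low epithelial markers. The number called lower was 12 without Ctsd-/- sample 1, 2 without Ctsd-/- sample 2 or 3, and 3 without Ctsd+/+ sample 1.

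Of the OAS family, Oas1a, Oas3 and Oasl1 were called higher, Oasl2 was not called (log2 fold change -1.13 ± 0.64, edgeR adjusted p = 0.166) and Oas2 was not tested. Oasl1, an OAS-like protein, was at 0.540, 0.702 and 0.864 CPM in Ctsd+/+ cells and at 9.64, 9.28 and 9.08 CPM in Ctsd-/- cells (log2 fold change 3.72 ± 0.26, edgeR adjusted p = 7.1e-07). The groups were far apart and each was tight. Oas1a had at most 1 count in the Ctsd+/+ samples and stood at 1.14, 0.110 and 0.532 CPM in Ctsd-/- cells, so that its mean was at least 6.5-fold higher against a floor of 3 counts per library (edgeR adjusted p = 0.00218). For Oas3 the same bound was at least 9.29-fold, from 0.0523 to 0.0900 CPM up to 0.301 to 1.63 CPM (edgeR adjusted p = 0.0154), and this call was lost without the first Ctsd-/- sample. The Oas1a gene has several near-identical neighbors, and its counts may be affected by reads that map to more than 1 of them.

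Other genes with higher levels in Ctsd-/- cells covered different roles. Bst2, which tethers budding viruses to the membrane (tetherin), was at 13.7, 10.1 and 7.80 CPM in Ctsd+/+ and 54.9, 37.2 and 37.1 CPM in Ctsd-/- cells (log2 fold change 2.03 ± 0.31, edgeR adjusted p = 0.000257). Nlrc5 was at 1.89, 0.244 and 0.340 CPM and at 7.54, 3.89 and 4.64 CPM (log2 fold change 2.71 ± 0.70, edgeR adjusted p = 0.00711). The GTPase gene Mx1 was below 0.5 CPM in all 6 samples and was called at a log2 fold change of 2.81 ± 0.88 (edgeR adjusted p = 0.0200). B2m was at 299, 237 and 214 CPM and at 468, 350 and 297 CPM, with overlapping groups, and was called by a narrow margin (log2 fold change 0.57 ± 0.22, edgeR adjusted p = 0.0486). It was not called under 12 of 22 alternatives, among them the fit with the replicate number as a block (0.57, edgeR adjusted p = 0.0634).

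Genes lower in Ctsd-/- cells at 1% FCS included both TAP subunits. Tap1 was at 45.5, 24.5 and 28.7 CPM in Ctsd+/+ and 23.7, 10.7 and 12.2 CPM in Ctsd-/- cells (log2 fold change -1.08 ± 0.33, edgeR adjusted p = 0.0180). Tap2 was at 84.5, 53.4 and 27.8 CPM and 32.1, 16.9 and 15.6 CPM, with overlapping groups (log2 fold change -1.36 ± 0.41, edgeR adjusted p = 0.0175). Both calls were lost without Ctsd+/+ sample 1, Ctsd-/- sample 2 or Ctsd-/- sample 3. Nlrc5 was higher and Tap1 and Tap2 lower in the same comparison, while H2-K1, H2-D1 and Tapbp were not called. B2m was called higher by a narrow margin, but not with the replicate block.

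Isg15 fell from 13.7, 14.4 and 7.88 CPM in Ctsd+/+ cells to 4.33, 2.57 and 3.43 CPM in Ctsd-/- cells (log2 fold change -1.80 ± 0.31, edgeR adjusted p = 0.000532). The guanylate-binding protein gene Gbp3 was at 2.55, 3.18 and 3.01 CPM and at 1.51, 0.164 and 0.207 CPM (log2 fold change -2.18 ± 0.69, edgeR adjusted p = 0.0201). Its call was lost without Ctsd-/- sample 2 or 3. Ifi35 was at 30.7, 32.5 and 25.8 CPM and at 21.6, 15.5 and 19.3 CPM (log2 fold change -0.66 ± 0.18, edgeR adjusted p = 0.00979). Irf9, the DNA-binding partner of STAT2, was the called regulator, at 28.5, 20.0 and 17.3 CPM and at 16.4, 7.89 and 9.73 CPM (log2 fold change -0.95 ± 0.34, edgeR adjusted p = 0.0383), and lost its call without Ctsd+/+ sample 1 or 2 or Ctsd-/- sample 2 or 3.

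**Figure D4:**
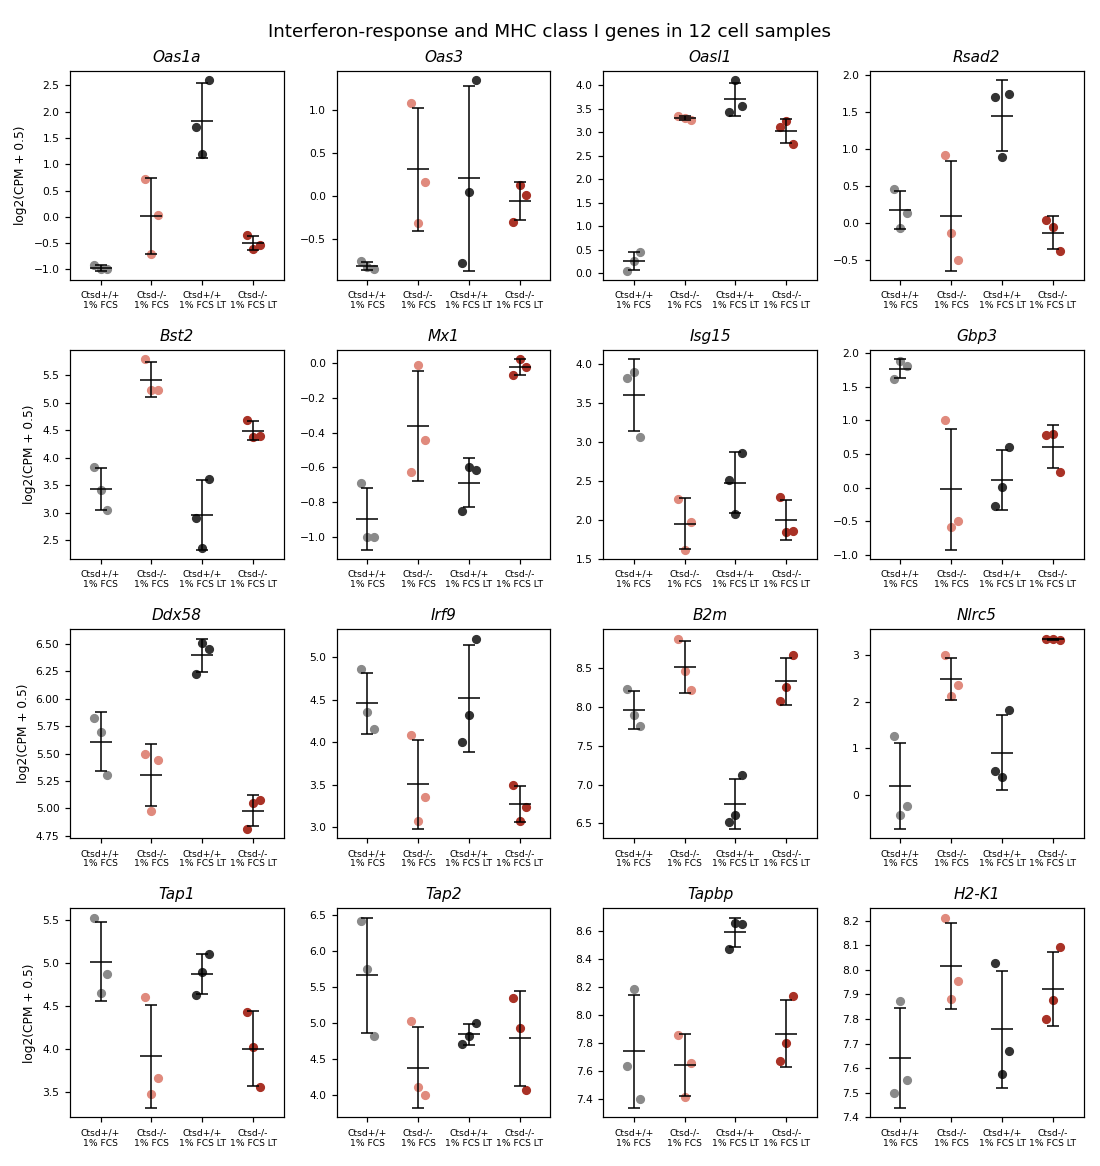
Level of 16 genes in the 4 cell groups as log2(CPM + 0.5), with 1 point per sample (n = 3) and bars for the mean with 1 SD on that scale. Oas1a and Oasl1 are lowest in Ctsd+/+ cells at 1% FCS and highest in Ctsd+/+ cells at 1% FCS LT, and Nlrc5 and Bst2 are higher in both Ctsd-/- groups than in both Ctsd+/+ groups.

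After 12 weeks in 1% FCS the genotypes differed in 11 of 37 genes (29.7%), 5 higher and 6 lower in Ctsd-/- cells, beside 20.5% of all genes called higher, 19.1% lower and 39.6% in either direction. Without Ctsd+/+ sample 1 or Ctsd-/- sample 1 or 2, 3 were higher. Nlrc5, Bst2 and Mx1 were again higher and Irf9 again lower, while Oas1a and Oasl1 were now lower. B2m, called by a narrow margin at 1% FCS, was higher here too. B2m was at 91.6, 97.4 and 139 CPM in Ctsd+/+ and 269, 303 and 404 CPM in Ctsd-/- cells (log2 fold change 1.57 ± 0.22, edgeR adjusted p = 0.000204). Nlrc5 was at 0.919, 0.799 and 3.07 CPM and at 9.74, 9.78 and 9.63 CPM (log2 fold change 2.60 ± 0.67, edgeR adjusted p = 0.00895). Both genes were called, whereas the heavy chains H2-K1 and H2-D1 were not called and tapasin fell. Tapbp was at 354, 402 and 400 CPM and at 203, 222 and 280 CPM (log2 fold change -0.71 ± 0.20, edgeR adjusted p = 0.0125), and its call was lost without Ctsd-/- sample 1.

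Among the effectors, Bst2 was at 6.94, 4.61 and 11.8 CPM in Ctsd+/+ and 25.3, 20.4 and 20.6 CPM in Ctsd-/- cells (log2 fold change 1.51 ± 0.31, edgeR adjusted p = 0.00248). Ifit1, which binds viral RNA, was at 1.95, 1.36 and 3.73 CPM and at 7.06, 6.98 and 5.13 CPM (log2 fold change 1.44 ± 0.45, edgeR adjusted p = 0.0238). Mx1 was called at levels of 0.0540 to 0.160 CPM and 0.455 to 0.515 CPM (log2 fold change 1.95 ± 0.69, edgeR adjusted p = 0.0411). The Mx1 call was lost under 9 of 21 alternatives and that of Ifit1 without any 1 of 4 samples.

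Oas1a was at 2.76, 1.78 and 5.55 CPM in Ctsd+/+ and 0.287, 0.154 and 0.194 CPM in Ctsd-/- cells (log2 fold change -3.97 ± 0.72, edgeR adjusted p = 0.00103). Rsad2, encoding viperin, was at 2.76, 1.36 and 2.84 CPM and at 0.527, 0.463 and 0.266 CPM (log2 fold change -2.46 ± 0.59, edgeR adjusted p = 0.00631). Oasl1 was at 10.3, 16.7 and 11.2 CPM and at 8.09, 8.96 and 6.22 CPM (log2 fold change -0.72 ± 0.22, edgeR adjusted p = 0.0225). Among regulators and sensors, Ddx58 was at 74.3, 90.7 and 87.4 CPM and at 27.6, 32.5 and 33.2 CPM (log2 fold change -1.43 ± 0.17, edgeR adjusted p = 5.17e-05), and Irf9 was at 15.5, 19.6 and 36.8 CPM and at 10.8, 7.93 and 8.90 CPM (log2 fold change -1.38 ± 0.35, edgeR adjusted p = 0.00784). For each of these genes every Ctsd-/- value lay below every Ctsd+/+ value, as in 26.4% of all tested genes.

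Over time in Ctsd-/- cells, none of the 37 genes was called between 1% FCS LT and 1% FCS in edgeR, beside 1.57% of all genes called higher, 0.810% lower and 2.38% in either direction. The lowest adjusted p was 0.122. At an unadjusted p under 0.05, 0 were higher and 3 lower, namely Bst2, Ifi44 and Dtx3l. DESeq2 called 0 higher and 1 lower, and limma-voom 0 and 0. Nlrc5 moved from a mean of 5.36 ± 1.93 to 9.72 ± 0.0818 CPM (SD, n = 3; log2 fold change 0.86 ± 0.62, edgeR adjusted p = 0.519).

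In Ctsd+/+ cells, 16 of 37 genes (43.2%) were called over the same time, 7 higher and 9 lower at 1% FCS LT, beside 23.0% of all genes called higher, 23.4% lower and 46.4% in either direction. With an absolute log2 fold change above 1 required as well, 5 members were higher and 5 lower, beside 11.0% and 12.3% of all genes. Without LT sample 3, 4 members were higher, and without LT sample 1, 5 were lower. Values of genes named before are not repeated. Oas1a was at least 36.7-fold higher at 1% FCS LT against the floor of 3 counts per library, and Oas3 at least 9.71-fold (edgeR adjusted p = 9.76e-05 and 0.0147). Oas3 was at 0.0811, 0.533 and 2.05 CPM at 1% FCS LT, overlapping the early group, and its call was lost without the third LT sample. Oasl1 rose by a log2 fold change of 4.17 ± 0.26 (edgeR adjusted p = 4.24e-07).

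Rsad2 was called at 1.85 ± 0.58 on the log2 scale (edgeR adjusted p = 0.0207), and Cmpk2, a mitochondrial nucleotide kinase encoded beside it, at 1.71 ± 0.62, from 0.660, 0.580 and 0.550 CPM to 1.81, 2.05 and 2.00 CPM (edgeR adjusted p = 0.0408). Ddx58 was called at 0.79 ± 0.17 (edgeR adjusted p = 0.00236) and Tapbp at 0.82 ± 0.20 (edgeR adjusted p = 0.00499), from 198, 290 and 168 CPM at 1% FCS for Tapbp. The Cmpk2 call was lost without any 1 of 7 samples, and that of Rsad2 without any 1 of 4.

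Genes lower at 1% FCS LT in Ctsd+/+ cells were spread over all tested roles. B2m had a log2 fold change of -1.19 ± 0.22 (edgeR adjusted p = 0.00103). Gbp3 was called at -2.23 ± 0.69, falling to 0.324, 0.506 and 1.01 CPM, and Gbp2 at -1.31 ± 0.33, from 9.36, 12.9 and 9.19 CPM to 3.00, 5.57 and 4.13 CPM (edgeR adjusted p = 0.0192 and 0.00686). Isg15 was called at -1.20 ± 0.30, falling to 5.19, 3.70 and 6.77 CPM (edgeR adjusted p = 0.00656). Among regulators and sensors, Dhx58 (-1.52), Irf1 (-0.80) and Ifih1 (-0.64) were called lower, so that of the 3 RNA sensors Ddx58 was higher and the other two lower. Ifi35 (-0.73) and Ifit2 (-0.65) were the remaining 2 called genes. The calls of Ifih1, Dhx58, Irf1 and Gbp3 each depended on at least 1 sample.

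The difference between the genotypes at 1% FCS LT was then compared with that at 1% FCS, as an interaction contrast. It was called in 10 of 37 genes (27.0%), 5 higher and 5 lower, beside 16.1% of all genes called higher, 14.1% lower and 30.3% in either direction. Genes whose difference was lower at the late time were Oasl1 (-4.44 ± 0.34, edgeR adjusted p = 4.4e-06), Rsad2 (-2.54 ± 0.83), Ddx58 (-1.13 ± 0.24, edgeR adjusted p = 0.0038), Oas1a (-9.51) and Oas3 (-4.53). The values of Oas1a and Oas3 are on the fitted scale, depend on the near-0 early Ctsd+/+ group and are no bounds. Genes whose difference was higher at the late time were Gbp3 (2.94 ± 0.97), Gbp2 (1.42 ± 0.46), Isg15 (1.24 ± 0.43), B2m (1.00 ± 0.31, edgeR adjusted p = 0.0301) and Ifit2 (0.79 ± 0.25). For Nlrc5 the contrast was -0.10 ± 0.91 and was not called. Ctsd+/+ cells at 1% FCS take part in this contrast, and the differences in Ctsd-/- cells over time were not called. The 5 positive calls varied from 0 to 10 when 1 sample was left out. They were 0 without Ctsd-/- 1% FCS sample 2 or 3, 10 without Ctsd-/- 1% FCS sample 1, and between 1 and 5 without any 1 of the others. The lower calls varied from 3 to 6.

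The 4 samples outside the shared run each had the highest or the lowest mean of their group over the 32 regulators, sensors and effectors. Ctsd-/- 1% FCS sample 1 was the highest of its group for 29 of 31 detected genes among the 32, Ctsd+/+ 1% FCS LT sample 3 for 24 of 32, and Ctsd+/+ 1% FCS sample 1 for 17 of 32. Ctsd-/- 1% FCS LT sample 3, in the same run as Ctsd+/+ 1% FCS LT sample 3, was the lowest of its group for 19 of 32. The mean log2(CPM + 0.5) of the 32 genes was 2.73 in Ctsd-/- 1% FCS sample 1 and 1.76 and 1.95 in the other two samples of that group. It was 2.46 in Ctsd+/+ 1% FCS sample 1 against 2.29 and 2.05. It was 2.54 in Ctsd+/+ 1% FCS LT sample 3 against 1.88 and 2.05, and 1.85 in Ctsd-/- 1% FCS LT sample 3 against 2.28 and 2.11.

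**Figure D5:**
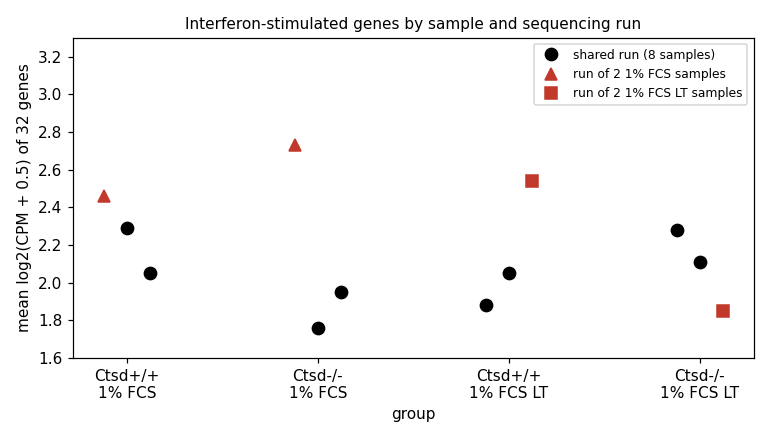
Mean log2(CPM + 0.5) of the 32 regulators, sensors and effectors in each cell sample, by group, with black circles for the 8 samples of the shared run, red triangles for the run of 2 1% FCS samples and red squares for that of 2 1% FCS LT samples. The triangles are the highest points of their groups, and the squares are the highest in Ctsd+/+ and the lowest in Ctsd-/- cells at 1% FCS LT.

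Within the shared run (2 samples per group), more genes were called than over all runs. At 1% FCS, 7 members were higher and 15 lower in Ctsd-/- cells in place of 7 and 6, while 44.7% of all genes were called. Genes called within the run but not over all runs included Oasl2 (-2.23, from -1.13 over all samples), Rtp4 (-2.52, from -1.48) and Irf7 (-1.57, from -0.88). At 1% FCS LT, 13 were higher and 5 lower in place of 5 and 6, with 37.3% of all genes called, and Ifit3 (1.37), Oasl2 (1.43), Rtp4 (1.49), Gbp2 (1.10) and Gbp3 (1.56) were among the additional genes. Over time in Ctsd-/- cells, 6 were higher (Ifit1, Oasl2, Rtp4, Cmpk2, Gbp3 and Nlrc5, log2 fold changes 1.20 to 2.73) and 0 lower, with 4.98% of all genes called. In Ctsd+/+ cells, 8 were higher and 13 lower, with 43.0% of all genes called, and Oas3, Ifih1 and Ifit2 were no longer called (2.38, -0.48 and -0.36). For the interaction, 13 were higher and 3 lower, with 27.7% of all genes called. Oas3, Rsad2 and Ifit2 were no longer called in the interaction (-2.41, -1.28 and 0.47), and Oasl1 was no longer called at 1% FCS LT (-0.66). With run as a covariate over all 12 samples the counts were within 1.5 times those without it in each comparison. The part of the run in these values was not tested further.

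Of the other pathway genes, 33 of 36 were tested in cells. At 1% FCS, 4 were called higher in Ctsd-/- cells and 12 lower, beside 48.5% of all genes called in either direction. At 1% FCS LT they were 2 and 5, beside 39.6%, and over time in Ctsd+/+ cells 5 and 12, beside 46.4%. Over time in Ctsd-/- cells edgeR called 0 and 0, beside 2.38% of all genes, and 1 was higher and 1 lower at an unadjusted p under 0.05. Of the 7 genes for class I peptide loading and the immunoproteasome, 6 were called lower in Ctsd-/- than Ctsd+/+ cells at 1% FCS, beside 25.1% of all genes, and 1 at 1% FCS LT, beside 19.1%. The Ctsd+/+ samples at 1% FCS are those with high Col1a1 and low epithelial markers, whose part in this count was not tested. Psmb8 was at 9.00, 8.85 and 6.80 CPM in Ctsd+/+ and 1.85, 0.219 and 0.798 CPM in Ctsd-/- cells (log2 fold change -3.09 ± 0.70, edgeR adjusted p = 0.00344), and Psmb10 had a log2 fold change of -1.42 ± 0.35. Among receptors and sensors, Ifnlr1, the interferon lambda receptor, was at 3.72, 3.39 and 3.35 CPM and at 27.8, 19.6 and 21.5 CPM (2.72 ± 0.22, edgeR adjusted p = 2.05e-06). Tlr3, a sensor of double-stranded RNA, was at 31.7, 24.6 and 32.2 CPM and at 131, 101 and 97.5 CPM (1.90 ± 0.19, edgeR adjusted p = 8.38e-06). At 1% FCS LT, Ifnlr1 was at 36.2, 32.2 and 31.2 CPM in Ctsd+/+ and 16.0, 20.4 and 29.1 CPM in Ctsd-/- cells (-0.61 ± 0.20, edgeR adjusted p = 0.0302). Tlr3 was at 198, 168 and 243 CPM and at 75.0, 96.8 and 106 CPM (-1.13 ± 0.18, edgeR adjusted p = 0.000432). Over time both genes were called higher in Ctsd+/+ cells (3.25 ± 0.22 and 2.78 ± 0.19) and were not called in Ctsd-/- cells (-0.07 ± 0.20 and -0.25 ± 0.18, edgeR adjusted p = 0.891 and 0.512). Both were called in the interaction (-3.32 and -3.03). Jak1 was lower in Ctsd-/- cells at both times (-1.38 ± 0.13 and -0.93 ± 0.12). Ifnar2, a chain of the type I interferon receptor, was lower at 1% FCS (-0.71 ± 0.17) and higher at 1% FCS LT (0.87 ± 0.17).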

How the data were processed

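Per the labels and the study's methods, the authors trimmed reads with Trimmomatic, aligned them to mm10 with STAR, and deposited its read counts per gene without normalization. The annotation release was not given in the sources used here. For tumors the counts regardless of strand were used (52.8 to 53.7% of counts fell on the opposite strand), and for cells the opposite-strand counts (97.1 to 97.3%). Rows that name no gene took 24.7 to 32.7% in tumors and 14.8 to 18.9% in cells and were left out. Gene IDs were matched to a GENCODE annotation of GRCm38 (45143 of 45706).

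Tumors and cells were fitted separately with edgeR 4.0.16 (R 4.3.3; filterByExpr, TMM, quasi-likelihood F-test, Benjamini-Hochberg adjustment over 18617 and 15178 tested genes). Tumor calls used an unadjusted p under 0.1 and cell calls an adjusted p under 0.05. SEs were derived from the log2 fold change and F. Bounds use a floor of 3 counts per library. DESeq2 1.42.0, limma-voom (limma 3.58.1) and other settings were alternatives. The smallest chi-square per gene between replicates was 15.4 (genes with at least 10 counts in a pair), so none were the same library. Deviations from group means correlated above 0.1 in every same-numbered pair for Ctsd-/- against Ctsd+/+ cells at 1% FCS (0.121 to 0.396) and for Ctsd-/- cells over time (0.131 to 0.178). The numbers, which the labels give no origin for, were therefore taken to pair these samples. At 1% FCS the first replicates of both genotypes had a run of their own, so that pairing and run cannot be told apart there. Scripts were tested on simulated data. Values are given in every sample for called members, by role the 3 highest and 3 lowest, and for Nlrc5 and Ciita. Members, lists and tests were chosen with earlier results of these data known. An exact permutation test of log2(CPM + 0.5) for single tumor genes and the marker covariates were chosen after seeing the data. Counting intervals and floors cover counting error only. A gene of the pathway list is not reported here.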

Additional observations from a re-analysis of the deposited data

Results flagged for a closer look

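For 5 interferon-stimulated effectors there was a control tumor far from the other 3, always control tumor 4. Ifit1 was at 145 CPM there against 61.1 to 72.3 CPM in the other control tumors, Ifit3 at 99.8 against 39.5 to 47.7, Oas1a at 187 against 52.7 to 63.7, Bst2 at 412 against 124 to 151, and Parp9 at 109 against 61.5 to 66.5 CPM. The gap was 0.864 to 0.918 of the group's range. These 5 are 5.68% of 88 gene and group pairs examined, and chance flags about 1 in 20. No member stood out in this way among the MMTV-cre;Ctsd-/- tumors.

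For 10 genes the genotype difference in cells was not the same at the late and the early time, by the interaction test in edgeR. The contrast was -9.51 for Oas1a, -4.53 for Oas3, -4.44 for Oasl1, -2.54 for Rsad2 and -1.13 for Ddx58, and 0.79 for Ifit2, 1.00 for B2m, 1.24 for Isg15, 1.42 for Gbp2 and 2.94 for Gbp3 on the log2 scale. For Oas1a and Oas3 it depends on the near-0 Ctsd+/+ group at 1% FCS and is no bound. The calls of Oas1a, Oasl1 and Ddx58 held under all alternatives. Those of the other genes were lost under some, from 6 of 22 for B2m to 11 of 22 for Ifit2. Ctsd+/+ cells at 1% FCS, with summed fibroblast markers, mostly Col1a1, at 607 to 2349 CPM, enter each of them.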

How the results depend on the processing

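For 58 called gene and comparison pairs the alternative settings gave 1226 values, each for a pair under a setting. None of these values changed direction, 1050 kept the call and 176 lost it. In cells the settings that left out 1 sample included samples outside the groups compared. In tumors the 8 genes called higher became 0 at an adjusted p under 0.05, 5 with the replicate block, 5 with adipocyte markers and 19 with endothelial markers as a covariate. In cells, genes higher in Ctsd-/- at 1% FCS fell to 2 under a minimum of 10 counts per sample, and the same filter gave 3 higher at 1% FCS LT, 3 higher over time in Ctsd+/+ and 2 lower in the interaction. Within the shared run the counts were 15 lower at 1% FCS, 13 higher at 1% FCS LT, 6 higher over time in Ctsd-/-, and 13 higher and 3 lower in the interaction. Over time in Ctsd-/-, DESeq2 and the fit without a filter gave 1 lower. The rule of a log2 fold change above 1 gave 5 lower over time in Ctsd+/+, and limma-voom 3 lower in the interaction. Without 1 sample, calls ranged over 5 to 13 higher and 0 to 1 lower in tumors, 5 to 8 and 2 to 12 at 1% FCS, 3 to 6 and 5 to 9 at 1% FCS LT, 4 to 9 and 5 to 11 over time in Ctsd+/+, 0 to 10 and 3 to 6 in the interaction, and 0 over time in Ctsd-/-. The cause of these shifts was not tested. Replicate numbers did not pair the tumors (correlation of deviations -0.427 to -0.037). In cells they were taken to pair the genotypes at 1% FCS, where pairing and run cannot be told apart, and Ctsd-/- cells over time. In these comparisons the replicate block ended the call of B2m at 1% FCS and changed no other call. A count of 0 in a cell library allows up to 0.0772 to 0.0916 CPM.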
